A study of Saccharomyces cerevisiae with 9 samples.

Results

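The 10 genes described here are SER3 (YER081W), SER33 (YIL074C), SER1 (YOR184W), SER2 (YGR208W), SHM1 (YBR263W), SHM2 (YLR058C), GCV1 (YDR019C), GCV2 (YMR189W), GCV3 (YAL044C) and MTD1 (YKR080W) of the budding yeast Saccharomyces cerevisiae, listed by these systematic identifiers out of 7126 genic regions in the deposited table. The list follows the pathway and has no threshold on a value, but it was drawn up with earlier results of these data known. They encode the serine synthesis route, both serine hydroxymethyltransferases, the 3 main subunits of the glycine cleavage complex and a cytosolic folate dehydrogenase. All 10 were found in the table, and all 10 passed the filter on low values in every comparison.

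The study compared diploid yeast strains lacking SAM1 or SAM2, the genes for the AdoMet synthetases that make the methyl donor S-adenosylmethionine from methionine and ATP. Poly-A RNA was sequenced in 3 libraries each of wildtype, sam1Δ/sam1Δ and sam2Δ/sam2Δ cells in mid-exponential phase (30 °C, OD600 between 0.5 and 0.6). All strains were W303 MATa/α diploids with homozygous mutations in LEU2, HIS3, TRP1, URA3 and ADE2, heterozygous mutations in LYS2 and CAN1, and a pair of marker chromosome fragments that carry TRP1 and the suppressor SUP11. Wildtype grew in synthetic complete medium (SC). The sam1Δ/sam1Δ strain, sam1::KANMX on both homologues, grew in SC with the drug G418, and the sam2Δ/sam2Δ strain, sam2::LEU2 on both, in SC without leucine. Strain, selectable marker and medium therefore changed together, and their effects cannot be told apart in these data.

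Serine is made from the glycolytic intermediate 3-phosphoglycerate, and serine hydroxymethyltransferase moves its side-chain carbon onto tetrahydrofolate, which leaves glycine. Glycine cleavage in mitochondria releases a second such carbon as carbon dioxide and ammonia are split off. These folate-bound carbons feed purine and thymidylate synthesis and, after reduction, the methylation of homocysteine to methionine, the substrate of the AdoMet synthetases.

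The sequence TGACTC, the core of the sites bound by the activators Gcn4 and Bas1 in budding yeast, was looked for on both strands of the 250 bases before each start codon in the RefSeq R64 reference, which is strain S288C rather than W303. It occurred before 8 of the 10 genes, all but SER3 and SHM1, and before 375 of 6001 protein-coding genes (6.25%). Stretches of 160 bases, ending 91 bases before the start codon, are shown for SHM2, MTD1 and the glycine cleavage genes, whose values are compared most below, and for both genes without the motif. The stretches are chrXII:259492-259651 on the minus strand for SHM2, chrXI:590145-590304 on the plus strand for MTD1, chrIV:485456-485615 on the minus strand for GCV1, chrXIII:637250-637409 on the plus strand for GCV2, chrI:58553-58712 on the minus strand for GCV3, chrV:322436-322595 on the plus strand for SER3 and chrII:736014-736173 on the plus strand for SHM1. Each is written 5′ to 3′ along its gene, and capitals mark TGACTC or its reverse complement GAGTCA.
SHM2: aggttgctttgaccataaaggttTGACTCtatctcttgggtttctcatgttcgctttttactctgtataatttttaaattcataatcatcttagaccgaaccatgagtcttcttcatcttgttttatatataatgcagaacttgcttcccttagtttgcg
MTD1: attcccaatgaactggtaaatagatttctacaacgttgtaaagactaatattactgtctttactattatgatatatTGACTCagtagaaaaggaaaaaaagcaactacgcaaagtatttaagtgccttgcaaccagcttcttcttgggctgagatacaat
GCV1: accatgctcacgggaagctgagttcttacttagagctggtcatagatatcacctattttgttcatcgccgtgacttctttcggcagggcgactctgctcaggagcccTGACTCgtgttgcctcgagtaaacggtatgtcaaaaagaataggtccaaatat
GCV2: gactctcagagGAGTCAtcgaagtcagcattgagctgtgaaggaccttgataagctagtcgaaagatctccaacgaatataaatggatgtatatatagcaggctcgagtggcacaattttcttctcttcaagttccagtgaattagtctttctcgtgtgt
GCV3: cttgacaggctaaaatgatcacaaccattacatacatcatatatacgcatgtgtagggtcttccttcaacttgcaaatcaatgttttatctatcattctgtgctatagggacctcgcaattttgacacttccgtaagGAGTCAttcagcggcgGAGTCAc
SER3: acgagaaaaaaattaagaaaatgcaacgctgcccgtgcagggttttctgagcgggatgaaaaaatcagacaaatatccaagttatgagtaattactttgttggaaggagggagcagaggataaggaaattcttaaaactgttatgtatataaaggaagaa
SHM1: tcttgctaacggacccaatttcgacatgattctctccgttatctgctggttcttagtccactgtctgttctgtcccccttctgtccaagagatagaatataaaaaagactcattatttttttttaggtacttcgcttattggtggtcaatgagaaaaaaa
GCV3 holds the motif 2 times, and the other motif-bearing genes shown hold it once. In SER3 the stretch lies inside SRG1, a non-coding RNA gene whose transcription across the SER3 promoter is known to repress SER3 in cells supplied with serine. In GCV3 and SHM1 the 250 bases overlap the neighbouring genes PTA1 and MIC12, and in SER1 the neighbour FYV12. A second run of letters, CTTCTT, was found before 4 of the 10 genes, SER33, SHM2, GCV1 and MTD1, and before 31.2% of the 6001. A longer form, CATC, then any 7 bases and CTTCTT, was found before 1 of the 10, GCV1, and before 7 of the 6001 (0.117%). A match is a run of letters, and binding was not measured.

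The values are estimated reads, scaled for the size of each library and called signal below. The steps in the values put 4.90 to 23.8 M reads in a library, with 1 read worth 0.443 to 2.18 units of signal, so even SER2, the lowest of the 10 genes, rested on 113 to 1362 reads. SAM1 had a signal of 0 to 1.77 in the sam1Δ/sam1Δ libraries and 2417 to 17140 in the others, and SAM2 had 2.43 to 6.89 in the sam2Δ/sam2Δ libraries and 17280 to 39411 in the others. LEU2 had a signal of 10979 to 23470 over all 9 libraries and does not separate the strains. Wildtype replicate 1 stood apart, at −47.4 on the first principal component of log2 signal (52.4% of the variance) against 22.1 and 14.4 for the other wildtype libraries. Of 12 haploid-specific and mating-type genes, which a/α diploids repress, 9 were highest in sam2Δ/sam2Δ replicate 3, among them the alpha-specific MF(ALPHA)1 at 1473 against 18.2 to 56.6 elsewhere and the haploid-specific STE18 at 149 against 2.60 to 14.5. The other alpha-factor gene, MF(ALPHA)2, was at 47.5 in this library, within the 28.3 to 70.3 of the others. The a-specific MFA2 was at 0 to 4.59 in every library. Counts over the 10 genes and over the gene lists are given below with and without each of these libraries, where the comparison holds it. The labels number the replicates and do not say whether they came from separate cultures, so P values measure the spread between these libraries.

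Divided by coding length, SHM2 had the highest level of the 10 genes in each strain and SER2 the lowest. In wildtype, SHM2 had 20117 ± 12810 units of signal per kilobase (SD, n = 3) and SER2 351 ± 273. GCV3 and MTD1 came next to SHM2 in all 3 strains, with wildtype levels of 8853 ± 3865 and 5361 ± 2976 per kilobase, and their ranges overlapped in each strain. SHM1, GCV2 and SER33 held places 7, 8 and 9 in every strain. Between these lay SER1, SER3 and GCV1, whose order changed with the strain and whose ranges overlapped in wildtype. In wildtype the ranges of every pair of neighbours in this order overlapped except SER33 and SER2. In sam1Δ/sam1Δ cells SHM2 lay clear of GCV3, MTD1 of GCV1, SER1 of SER3, SER3 of SHM1 and SER33 of SER2. For sam2Δ/sam2Δ cells SHM2 lay clear of GCV3, SER3 of SHM1, SHM1 of GCV2 and SER33 of SER2.

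The first step of serine synthesis, the oxidation of 3-phosphoglycerate, is encoded by 2 genes, SER3 and SER33, whose products are identical at 90.8% of aligned residues and whose coding sequences are identical at 82.6% of aligned bases. No 75-base word of either gene, the read length used, occurred elsewhere in the reference, so reads without errors could be placed. SER3 lies at chrV:322686-324095, plus strand, and shares 77 bases of its start with SRG1 (chrV:322212-322762). Its signal, which the program had to divide from that of SRG1, was 4065, 6235 and 6328 in wildtype replicates 1, 2 and 3. It was 5618, 4918 and 4897 in sam1Δ/sam1Δ cells and 7281, 6017 and 5019 in sam2Δ/sam2Δ. The 3 strains overlapped, and wildtype replicate 1 was the lowest of the 9 libraries.

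SER33, at chrIX:221081-222490 on the minus strand, separated the mutants. Its signal was 1960, 1668 and 1178 in wildtype, 2280, 2175 and 2009 in sam1Δ/sam1Δ cells, and 1227, 1200 and 1668 in sam2Δ/sam2Δ. Every sam1Δ/sam1Δ library was above every wildtype and every sam2Δ/sam2Δ library. The isozyme genes were ordered differently over the libraries, with a Pearson r of −0.70 between SER3 and SER33 over 9 libraries, given as a description of libraries that share strain and depth.

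SER1 (chrXV:679357-680544, plus strand) encodes phosphoserine aminotransferase, the next enzyme. Its signal was 5444, 4882 and 3959 in wildtype, 6401, 6806 and 6036 without SAM1 and 6261, 5691 and 4760 without SAM2. The sam1Δ/sam1Δ libraries were all above wildtype, while sam2Δ/sam2Δ overlapped both. SER2 (chrVII:911883-912812, plus strand), which encodes phosphoserine phosphatase, the last enzyme of the route, had a signal of 619, 161 and 200 in wildtype. It was 244, 603 and 518 in sam1Δ/sam1Δ cells and 159, 246 and 341 in sam2Δ/sam2Δ. SER2 spanned 3.84-fold within wildtype, where replicate 1 was the highest of all 9 libraries.

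Serine hydroxymethyltransferase exists as a mitochondrial enzyme, Shm1, and a cytosolic one, Shm2, identical at 57.3% of aligned residues. SHM1 (chrII:736264-737736, plus strand) had a signal of 5339, 3104 and 3903 in wildtype, 3370, 4387 and 4048 in sam1Δ/sam1Δ cells and 3596, 3918 and 3213 in sam2Δ/sam2Δ. Both mutants lay within the wildtype range. SHM2 (chrXII:257992-259401, minus strand) had a signal of 49034, 20440 and 15620 in wildtype, 30960, 43069 and 36018 in sam1Δ/sam1Δ cells and 27172, 22649 and 25654 in sam2Δ/sam2Δ. Wildtype replicate 1 was the highest library, and the other wildtype libraries were the lowest. All sam1Δ/sam1Δ libraries were above all sam2Δ/sam2Δ libraries.

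The glycine cleavage complex has the subunits T (GCV1, the aminomethyltransferase), P (GCV2, the glycine decarboxylase) and H (GCV3, the lipoic acid carrier), besides a lipoamide dehydrogenase, Lpd1, that it shares with other complexes. GCV1 (chrIV:484163-485365, minus strand) had a signal of 5543, 4712 and 3206 in wildtype, 6837, 7510 and 6543 in sam1Δ/sam1Δ cells and 6919, 4745 and 5729 in sam2Δ/sam2Δ. Each sam1Δ/sam1Δ library was above each wildtype library. GCV2 (chrXIII:637500-640604, plus strand) had 8245, 3376 and 2228 in wildtype, 4712, 8753 and 7746 in sam1Δ/sam1Δ cells and 4703, 3358 and 6271 in sam2Δ/sam2Δ. GCV3 (chrI:57950-58462, minus strand) had 6733, 4021 and 2871 in wildtype, 4654, 7076 and 5947 in sam1Δ/sam1Δ cells and 4377, 3447 and 3181 in sam2Δ/sam2Δ. For GCV2 and GCV3 the wildtype libraries spanned 3.70-fold and 2.34-fold, with replicate 1 among the highest 3 libraries and replicate 3 the lowest of all.

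MTD1 (chrXI:590395-591357, plus strand) encodes the NAD-dependent cytosolic dehydrogenase that oxidises 5,10-methylenetetrahydrofolate. Its signal was 8418, 4050 and 3021 in wildtype, 6017, 9947 and 8258 in sam1Δ/sam1Δ cells and 5501, 4425 and 6637 in sam2Δ/sam2Δ. Wildtype again held both a library among the 2 highest and the 2 lowest. The plot of signal by library shows the spread that each comparison below has to exceed.

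**Figure D1:**
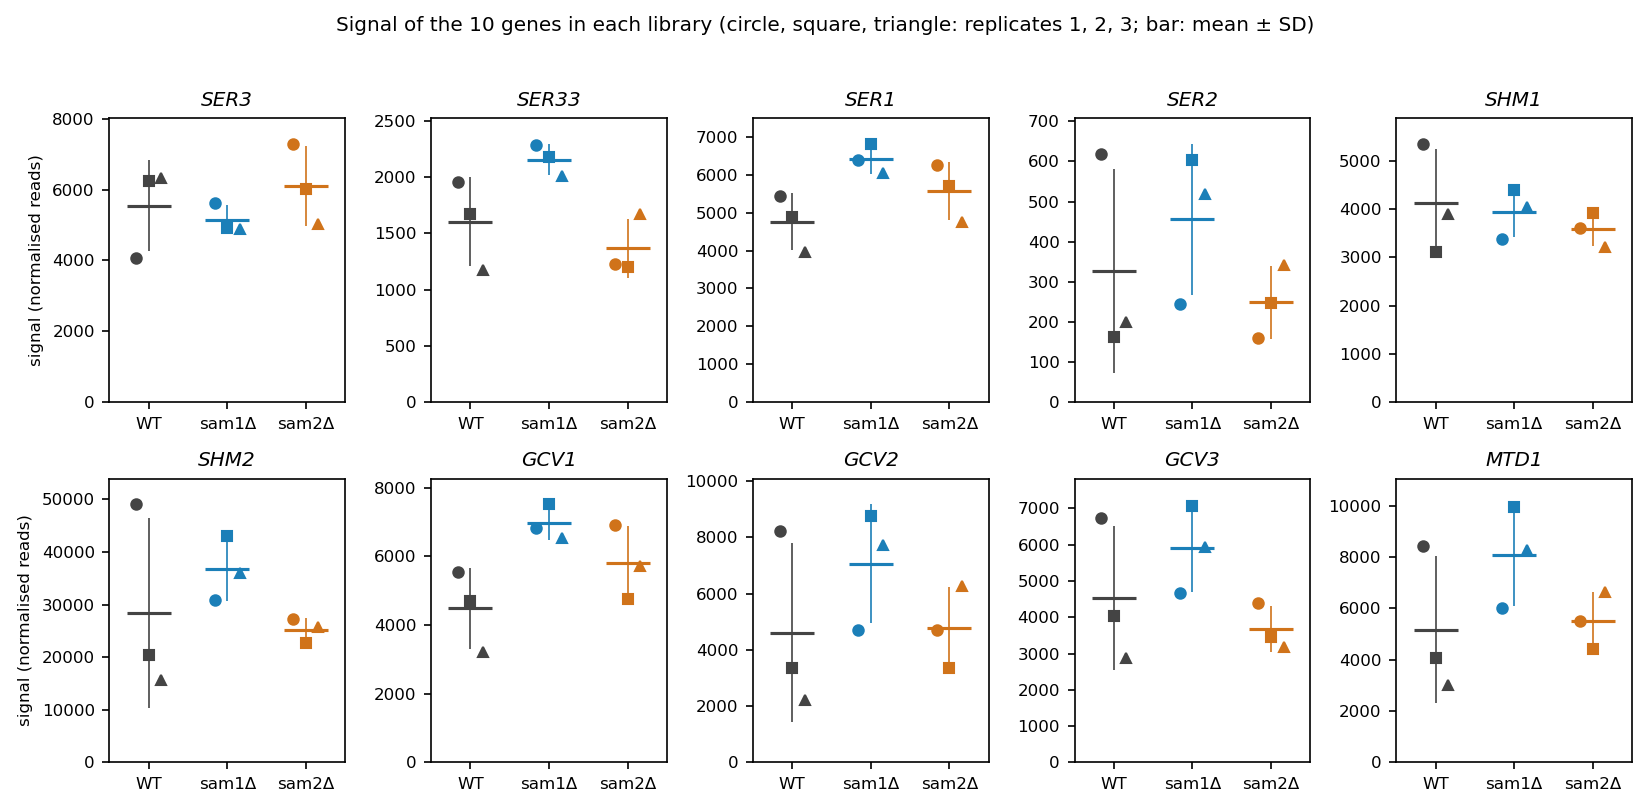
Signal (normalised reads, linear axis from 0) of each of the 10 genes in the 9 libraries by strain, with replicates 1, 2 and 3 as circle, square and triangle, horizontal bars for the mean and vertical lines for ± 1 SD (n = 3). Wildtype replicate 1 is the highest wildtype library for all genes except SER3, and SER33, SER1 and GCV1 are higher in each sam1Δ/sam1Δ library than in any wildtype library.

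The first comparison asked which of these genes changed when SAM1 was lost. The study's cutoffs ask for a P value no higher than 0.05, before adjustment, and for a log2FC beyond ±0.58, and by these GCV1 was the 1 gene of the 10 counted as upregulated in sam1Δ/sam1Δ cells, and 0 were downregulated. Over all genes tested, 70 of 6109 (1.15%) met these cutoffs, 38 of them upward (0.622%). The study applied its cutoffs to P values from another program, Cuffdiff, so the genes it reported need not be those counted here. GCV1 had a log2FC of 0.67 (SE 0.24, 95% CI 0.09 to 1.24, unadjusted P = 0.0296 by limma). Its Benjamini-Hochberg adjusted P by limma was 0.9997, and 0 of the 10 genes passed an adjusted P of 0.05, as did 6 of the 6109 (0.0982%).

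The log2FC was positive for 8 of the 10 genes in sam1Δ/sam1Δ, all but SER3 (−0.08) and SHM1 (−0.04), and both of those signs turned when values were scaled to the library total. The median over the 10 genes was 0.50, against −0.01 over all genes tested. For 3 genes, SER33, SER1 and GCV1, all mutant libraries exceeded all wildtype libraries, as they did for 3.32% of the genes tested. SER1 had a log2FC of 0.44 (SE 0.18, unadjusted P = 0.0483 by limma), short of the fold cutoff, and SER33 had 0.46 (SE 0.21, unadjusted P = 0.0759). GCV2, MTD1, SER2 and SHM2 had log2FCs of 0.79, 0.75, 0.64 and 0.54 with SEs of 0.52, 0.42, 0.59 and 0.46, so their wildtype spread left intervals that include 0. GCV3 had 0.44 (SE 0.35).

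**Figure D2:**
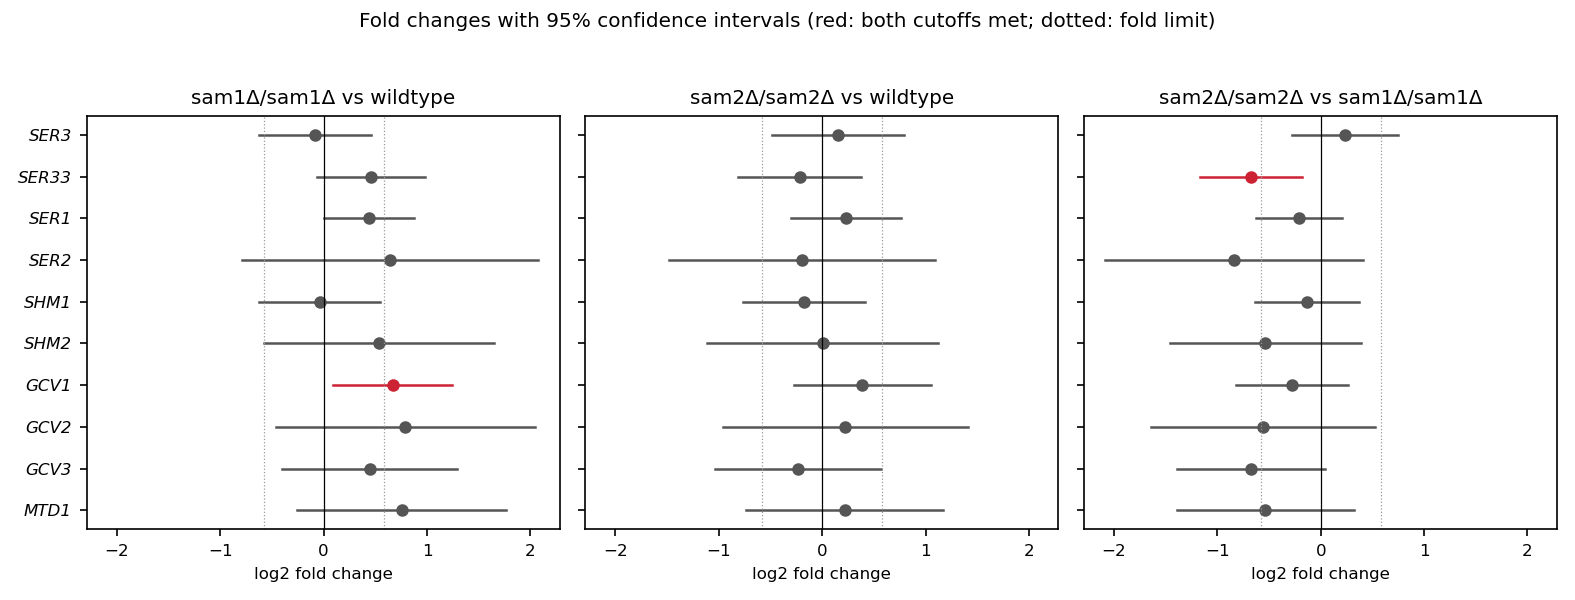
The log2FC of each of the 10 genes (points) with its 95% confidence interval (lines) in the 3 comparisons, red where both of the study's cutoffs were met and dotted lines at the fold cutoff. GCV1 (0.67, sam1Δ/sam1Δ against wildtype) and SER33 (−0.67, sam2Δ/sam2Δ against sam1Δ/sam1Δ) are the red points.

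Which of the 10 genes were counted depended on wildtype replicate 1. Its signal was 3.43 times the mean of the other wildtype libraries for SER2, 2.94 times for GCV2, 2.72 times for SHM2, 2.38 times for MTD1 and 1.95 times for GCV3, and 0.647 times for SER3. Among 5993 genes, 3.72% had a ratio at least as high as SER2 and 6.76% at least as high as SHM2. Without this library, 7 of the 10 genes met the cutoffs as upregulated in sam1Δ/sam1Δ. Of 6079 genes 355 then met them in either direction (5.84%), 2.86% upward. The 7 were GCV2 (log2FC 1.32), SER2 (1.24), MTD1 (1.18), SHM2 (1.02), GCV1 (0.84), GCV3 (0.77) and SER33 (0.62), and the median of the 10 was 0.81. By limma 0 of the 10, and 0 of all genes, then had an adjusted P of 0.05 or less, while 8 of the 10 had an unadjusted P under 0.05, the 7 and SER1 (log2FC 0.54). Leaving out any other of the 6 libraries gave 0 counted genes of the 10, with 0.674 to 1.90% of all genes counted, as GCV1 then had an unadjusted P of 0.051 to 0.0933.

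The same axis ran through the mutants. On the first principal component, sam1Δ/sam1Δ replicates 2 and 3 lay at −26.6 and −23.5, on the side of wildtype replicate 1, and sam1Δ/sam1Δ replicate 1 lay at 17.1, near the other wildtype libraries. For SER2, SHM1, SHM2, GCV2, GCV3 and MTD1, sam1Δ/sam1Δ replicate 1 was also the lowest of its strain, with 4712 for GCV2 against 8753 and 7746. GCV1, SER1 and SER33 did not follow this order, and their sam1Δ/sam1Δ libraries spanned 1.15-, 1.13- and 1.14-fold. The part of this component in the fold changes was not tested.

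**Figure D3:**
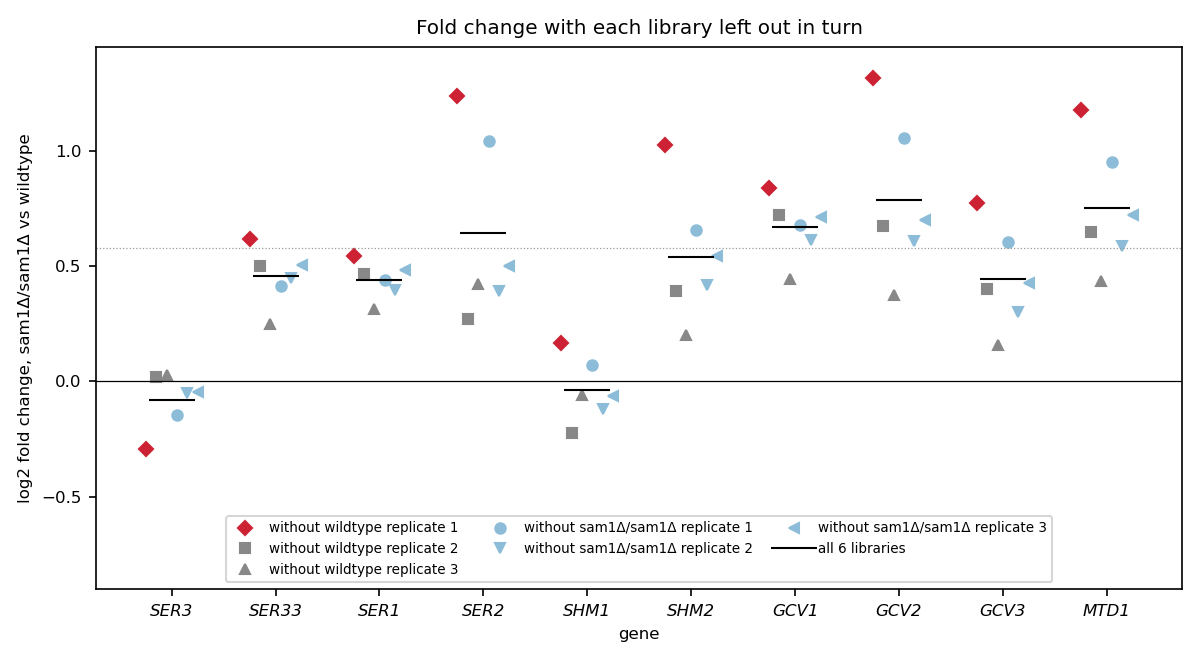
The log2FC of each of the 10 genes in sam1Δ/sam1Δ against wildtype with all 6 libraries (black bars) and with each library left out in turn (symbols), on a linear axis with a dotted line at the fold cutoff of 0.58. Leaving out wildtype replicate 1 (red diamonds) gives the highest value for 9 of the 10 genes and the lowest for SER3.

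The comparison of sam2Δ/sam2Δ with wildtype counted 0 of the 10 genes, and 0 had an unadjusted P under 0.05 by limma, while 601 of 6099 genes (9.85%) met the cutoffs. Log2FCs ran from −0.23 for GCV3 to 0.39 for GCV1, with a median of 0.08 against −0.01 over all genes tested, and 6 of the 10 were positive. All 10 genes had ranges that overlapped wildtype, whereas 22.3% of all genes did not overlap. An adjusted P of 0.05 or less was reached by 0 of the 10 and by 0.115% of all genes. GCV1 had the widest difference, at 0.39 (SE 0.28, 95% CI −0.27 to 1.05, adjusted P = 0.602 by limma), an interval that includes the size of its difference in sam1Δ/sam1Δ. For SHM2 the log2FC was 0.00 with a 95% CI of −1.11 to 1.12, so a change of 2-fold either way is within its error. SHM1, SER3 and SER1 had the narrower intervals of −0.76 to 0.42, −0.49 to 0.79 and −0.30 to 0.76. Without wildtype replicate 1, MTD1 (0.64) and GCV2 (0.75) met the cutoffs as upregulated, while 12.3% of all genes were counted, 6.24% upward. Without sam2Δ/sam2Δ replicate 3, the library with the high MF(ALPHA)1, 0 of the 10 genes and 473 of 6081 (7.78%) were counted, and the median over the 10 was −0.0032.

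The mutants were compared directly in a fit of all 9 libraries, in which wildtype enters only through the shared spread. Here SER33 was lower in sam2Δ/sam2Δ than in sam1Δ/sam1Δ, with a log2FC of −0.67 (SE 0.22, 95% CI −1.16 to −0.18, unadjusted P = 0.0129, adjusted P = 0.168 by limma). It was the 1 gene of the 10 counted, against 625 of 6139 genes (10.2%), 310 of them downward (5.05%), and 0 of the 10 passed an adjusted P of 0.05, as 37 genes did (0.603%). SER33 met the cutoffs in each of the 9 fits that left out 1 library, at −0.83 to −0.59, including −0.83 without sam2Δ/sam2Δ replicate 3 (10.4% of all genes counted).

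The direct log2FC was negative for 9 of the 10 genes, all but SER3 (0.23), with a median of −0.54 against −0.01 over all genes tested. Every sam2Δ/sam2Δ library was below every sam1Δ/sam1Δ library for SER33, SHM2 and GCV3, and 13.1% of all genes showed this. GCV3 had a log2FC of −0.68 (SE 0.31, unadjusted P = 0.061, adjusted P = 0.325 by limma), past the fold cutoff and short of the other. It met both cutoffs, beside SER33, without wildtype replicate 1 (12.7% of all genes counted), without wildtype replicate 3 (9.86%), without replicate 1 of sam1Δ/sam1Δ (13.3%), and in a fit of the 6 mutant libraries (12.0%). SER2 (−0.84, SE 0.55), GCV2 (−0.56, SE 0.48), MTD1 (−0.54, SE 0.38) and SHM2 (−0.53, SE 0.41) had wider errors, and SER1 (−0.21), SHM1 (−0.13) and GCV1 (−0.28) differed less. All 3 comparisons share libraries, so each gene's values in them are not independent.

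The rest of the pathway was followed in 33 further genes that bring in or use serine and glycine, run the folate cycle, supply lipoate to glycine cleavage or handle formate. In sam1Δ/sam1Δ 0 of the 33 met the cutoffs, against 1.15% of all genes, with a median of −0.06. With wildtype replicate 1 left out they were 5 of the 33, 1 upward and 4 downward, against 5.84% of all genes, and the median was 0.05. The paper, with P values from Cuffdiff, reports CDC21, a gene of this list, as downregulated in sam1Δ/sam1Δ. Here its log2FC with all 6 libraries was −0.46 (SE 0.52). In sam2Δ/sam2Δ 2 of the 33 were downregulated against wildtype and 0 upregulated, with a median of −0.25. Of all genes 9.85% were counted, 4.85% downward, and the share of the list was not tested against these. Leaving out wildtype replicate 1 gave 6 of the 33 (12.3% of all genes), and leaving out sam2Δ/sam2Δ replicate 3 gave LCB1 alone (7.78%). LCB1, which encodes a subunit of serine palmitoyltransferase, the enzyme that starts sphingolipid synthesis from serine, had a signal of 1461, 919 and 985 in wildtype and 379, 647 and 532 in sam2Δ/sam2Δ (log2FC −1.11, SE 0.27, adjusted P = 0.233 by limma), and it met the cutoffs in each of the 6 fits that left out 1 library. HEM1, for 5-aminolevulinate synthase, which draws on glycine for haem, had 4681, 2912 and 2726 in wildtype and 1947, 2141 and 2295 in sam2Δ/sam2Δ (log2FC −0.65, SE 0.25, adjusted P by limma of 0.34), and it was counted in 2 of those 6 fits. Without wildtype replicate 1 its log2FC was −0.41, short of the fold cutoff, and without replicate 1, 2 or 3 of sam2Δ/sam2Δ its unadjusted P by limma was 0.107, 0.0826 or 0.0571. HEM1 was also not counted when values were scaled to the library total (log2FC −0.49). Both genes were below wildtype in every sam2Δ/sam2Δ library.

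Between the mutants 3 of the 33 were lower in sam2Δ/sam2Δ, with a median of −0.14, beside 10.2% of all genes counted and 5.05% lower. No test between the list and all genes was run here either. The fit lacking wildtype replicate 1 had 3 lower and 1 higher (12.7% of all genes counted), and the one lacking sam2Δ/sam2Δ replicate 3 had 2 lower and 2 higher (10.4%). They were LCB1 (log2FC −1.05, SE 0.26), ADE3 (−0.68, SE 0.29), the cytosolic trifunctional folate enzyme, and MET6 (−0.92, SE 0.31), the methionine synthase that spends methyl-folate, with adjusted P values of 0.105, 0.291 and 0.182 by limma. MET6 had a signal of 41319, 46767 and 44255 in sam1Δ/sam1Δ cells and 22322, 26312 and 21361 in sam2Δ/sam2Δ, with no overlap. In wildtype it had 61251, 36240 and 29141, also above every sam2Δ/sam2Δ library. Its log2FC in sam2Δ/sam2Δ against wildtype was −0.79 (SE 0.38, unadjusted P = 0.0792 by limma), short of the P cutoff. The paper, with P values from Cuffdiff, lists MET6 as downregulated in this strain. Between the mutants MET6 missed the cutoff in 1 of the 9 fits that left out 1 library, that without sam1Δ/sam1Δ replicate 2 (unadjusted P = 0.0534 by limma). LCB1 met both cutoffs in all 9. ADE3 had 6382, 9495 and 8096 in sam1Δ/sam1Δ cells and 5125, 4981 and 4713 in sam2Δ/sam2Δ. With an unadjusted P of 0.0458 by limma it missed the cutoff in 6 of the 9 fits that left out 1 library. ADE3 was also not counted with scaling by a weighted trimmed mean or to the library total, or with replicate number added to the fit. Under both of these scalings LIP2 was counted as higher in sam2Δ/sam2Δ (log2FC 0.83, SE 0.37 in the main fit, where it was not counted).

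Among the regulators, GCN4, the activator of general amino acid control, had a signal of 41642, 39321 and 38436 in sam1Δ/sam1Δ cells and 23214, 27716 and 27391 in sam2Δ/sam2Δ, against 38291, 32590 and 33826 in wildtype. The direct log2FC was −0.61 (SE 0.22, unadjusted P = 0.0229, adjusted P = 0.218 by limma), and it fell short of a cutoff in 4 of the 9 fits without 1 library, which lacked sam2Δ/sam2Δ replicate 1 or a replicate of sam1Δ/sam1Δ. It also fell short when values were scaled to the library total (log2FC −0.55), and with replicate number added to the fit (unadjusted P = 0.0664 by limma). Gcn4 is known to be controlled mainly at translation, which transcript levels do not measure. BAS1 and PHO2, whose products activate purine and one-carbon genes together, had direct log2FCs of 0.50 and 0.11, and CHA4, a serine-responsive activator, had 0.14; none of the 3 met the cutoffs in any comparison of all libraries. Without wildtype replicate 1, BAS1 was counted as upregulated in sam2Δ/sam2Δ (log2FC 0.64, SE 0.22, adjusted P = 0.234 by limma). Without sam2Δ/sam2Δ replicate 2, BAS1 was counted as higher in sam2Δ/sam2Δ than in sam1Δ/sam1Δ (log2FC 0.68, SE 0.25, adjusted P = 0.225 by limma). SRG1 had a signal of 562, 1285 and 992 in wildtype, 1041, 696 and 856 in sam1Δ/sam1Δ cells and 1395, 1017 and 1320 in sam2Δ/sam2Δ. Its log2FCs of −0.07 and 0.46 against wildtype and 0.53 between the mutants met no cutoff, and SER3 and SRG1 were both lowest in wildtype replicate 1.

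For 5 of the 10 genes, the gene outside the 10 most like them over the libraries was a purine gene. By Pearson r of log2 signal over 9 libraries, among 5714 genes with a mean signal of at least 50, the gene outside the 10 most like MTD1 was ADE17 (r = 0.98), that most like GCV2 was ADE2 (0.98) and that most like SHM2 was ADE1 (0.96). ADE13 was most like both GCV1 (0.92) and SER1 (0.87). These encode enzymes of the purine route, in which folate carbons enter the ring, and ADE2 is mutated in all strains. The next gene was a purine gene for MTD1 (ADE2, 0.98), SHM2 (ADE5,7, 0.96) and SER1 (ADE17, 0.81). For GCV2 it was FRE6, at 0.978 against 0.979 for ADE2, and for GCV1 it was ENB1 (0.89), neither a purine gene. High r was common for some genes: with SER2, MTD1 at 0.85 ranked 677 of 5714, while with SER1, GCV1 at 0.90 ranked 1. The share of genes at each r above was not taken, so these ranks cannot show a likeness limited to purine genes. Without wildtype replicate 1 the 5 pairs with a purine gene in first place had r of 0.98, 0.98, 0.98, 0.95 and 0.89. Without sam2Δ/sam2Δ replicate 3 they had 0.98, 0.98, 0.96, 0.93 and 0.91. The pairs were chosen on all 9 libraries with no new search, so these values cannot show which gene would then come first. The libraries share strain, medium and depth, so these values describe a pattern, with no test.

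The other 5 genes were most like genes outside the purine list. GCV3 was most like AIM45 (0.96), with ADE3 next (0.95), SER33 like ATG23 (0.94), SHM1 like RPL10 (0.95), SER2 like ROX3 (0.99) and SER3 like YBR137W (0.99). Among the 10 genes themselves, GCV2 and MTD1 were each the other's closest of all 5714 (0.99), and GCV1 was the closest to SER1 (0.90). SER3 had no positive r with any of the other 9 genes, its highest being −0.15 with SER1.

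The purine list of 10 genes had median log2FCs of 0.62 in sam1Δ/sam1Δ, 0.17 in sam2Δ/sam2Δ and −0.50 between the mutants, set beside 0.50, 0.08 and −0.54 for the 10 genes above, with no test between the lists. The purine medians against wildtype were 1.04 and 0.54 with wildtype replicate 1 left out, and with sam2Δ/sam2Δ replicate 3 left out they were 0.04 in sam2Δ/sam2Δ and −0.55 between the mutants. Its members did not move as one. In sam1Δ/sam1Δ 1 of the 10 was counted, against 1.15% of all genes, and it was ADE13 (log2FC 0.76, unadjusted P = 0.0366, adjusted P = 0.9997 by limma). In sam2Δ/sam2Δ 2 were counted, against 9.85% of all genes, in opposite directions: ADE12 (0.60, unadjusted P = 0.0407, adjusted P = 0.357 by limma) and ADE8 (−0.68, unadjusted P = 0.032, adjusted P = 0.328). These 3 calls were lost in 5, 4 and 5 of the 6 fits that left out 1 library. ADE8 had a log2FC of −0.45 when wildtype replicate 1 was left out and −0.56 when sam2Δ/sam2Δ replicate 3 was. Between the mutants ADE8 alone was counted (−1.01, unadjusted P = 0.00187, adjusted P = 0.0856 by limma), against 10.2% of all genes, and it met the cutoffs in all 9 fits that left out 1 library. Of the 10 purine genes, 7 were counted without wildtype replicate 1 in sam1Δ/sam1Δ (5.84% of all genes), 4 in sam2Δ/sam2Δ (12.3%) and 2 between the mutants (12.7%). In the fits that lacked sam2Δ/sam2Δ replicate 3, 1 was counted in sam2Δ/sam2Δ (7.78%) and 1 between the mutants (10.4%). TGACTC occurred before 7 of the 10 purine genes. Median deviations from the mean of each gene were 0.50 for the 10 serine, glycine and folate genes and 0.52 for the purine genes in wildtype replicate 1, and −0.62 and −0.75 in wildtype replicate 3. ADE12 and ADE16 lay below their means in wildtype replicate 1, at −0.13 and −0.17.

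**Figure D4:**
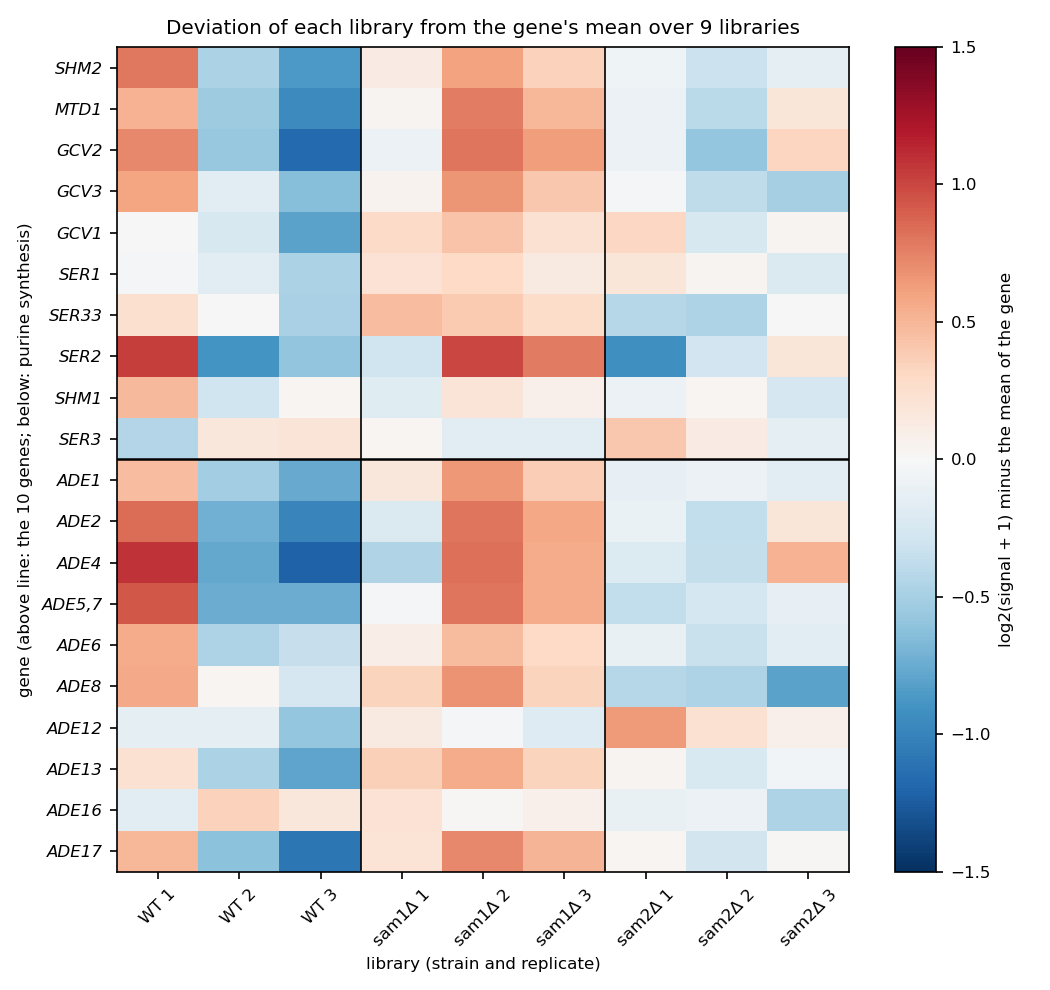
Deviation of log2(signal + 1) in each library (columns, by strain and replicate) from the gene's mean over 9 libraries, for the 10 serine, glycine and folate genes (above the line) and 10 purine synthesis genes (below), with red above and blue below the mean. Wildtype replicate 1 and sam1Δ/sam1Δ replicates 2 and 3 are red, and wildtype replicates 2 and 3 blue, in most rows of both lists, and SER3, ADE12 and ADE16 are among the rows that are not.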

How the data were processed

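Poly-A RNA of 3 libraries per strain was sequenced from a stranded kit as single-end reads of 75 bases. Per the labels and the study's methods, the authors aligned reads with TopHat2 2.0.13 to R64 and made gene values with Cufflinks and Cuffnorm 2.2.1; the annotation release and the normalization setting are not given in the sources used here. The deposited values are signal, reads estimated for each gene and scaled by library. Values of genes alone at their locus, as 9 of the 10 genes are, lay on steps of 1 read, while genes that share a locus, such as SER3 and SRG1, hold splits made by the program. There were 0 other value columns.

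Genes that reached a signal of 10 in 3 or more libraries of a fit were tested with limma 3.58.1 in R 4.3.3, with a mean-variance trend, on log2(signal + 1), so fold changes are on that scale. Comparisons with wildtype used 6 libraries, and the one between the mutants used 9. A gene was counted by the study's cutoffs, a limma P value no higher than 0.05 before adjustment and a log2FC beyond ±0.58, with Benjamini-Hochberg adjusted P values beside. With 3 libraries in each group, exact permutation gives no P under 0.1, so it was not used. The fits were also run on simulated data with independent noise for each gene, only to see that the median estimate recovered known changes. Those data lack the component shared by the libraries here, so they give no error rate for these comparisons.

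The 10 genes, the gene lists and the naming rule were chosen with earlier results of these data known. Named with values are the 10 genes, SAM1, SAM2 and LEU2, the regulators, and other pathway genes counted in at least 1 comparison. Also named are up to 3 counted purine genes and, for each of the 10, the gene outside them with the highest Pearson r. The mating markers of 1 library were named after their values were seen. Alternatives were pseudocounts of 0.5 and 5, no filter or a mean of at least 50, 3 other scalings, other libraries in the fit, a replicate block, adjusted P values as the cutoff, and fits without each library in turn. Of the identifiers, 6079 matched RefSeq, and 5999 of 6006 RefSeq genes compared (99.88%) lay within their locus in the table. Sequences, coordinates and motif counts are from RefSeq R64, read with Python 3.11.15, and figures were drawn with matplotlib 3.10.9.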

Additional observations from a re-analysis of the deposited data

Results flagged for a closer look

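SER33 was marked because the direct test between the mutants met the study's cutoffs. The difference between the mutants was −0.67 (unadjusted P = 0.0129, adjusted P = 0.168 by limma), lower in 3 of 3 sam2Δ/sam2Δ libraries than in any sam1Δ/sam1Δ library. Against wildtype its log2FC was 0.46 without SAM1 and −0.22 without SAM2 (unadjusted P = 0.0759 and 0.417 by limma), and neither met the cutoffs. The direct difference has an adjusted P above 0.05.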

How the results depend on the processing

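For the 10 genes, the counts of 1, 0 and 1 in the sam1Δ/sam1Δ, sam2Δ/sam2Δ and direct comparisons did not change with the pseudocount, the filter or the scaling. With adjusted P values they were 0, 0 and 0, and the counts over all genes were 6, 7 and 37. A fit of the 6 mutant libraries alone counted 2 of the 10 in the direct comparison. Leaving out 1 library gave 0 to 7 of the 10 in sam1Δ/sam1Δ, 0 to 2 in sam2Δ/sam2Δ and 1 to 2 in the direct comparison, and 41 to 355 genes over all in sam1Δ/sam1Δ, where wildtype replicate 1, left out, gave the 355, and the mutant's own replicates 1 and 3 gave 116 and 41. Scaling to the library total moved the median of all genes to 0.09, 0.15 and 0.05 and turned the sign of SER3 (0.019) and SHM1 (0.063) in sam1Δ/sam1Δ. Single libraries also turned signs of differences near 0: over these fits SER3 ran from −0.29 to 0.028 and SHM1 from −0.22 to 0.17 in sam1Δ/sam1Δ. In sam2Δ/sam2Δ, SER3 ran from −0.058 to 0.28, SER2 from −0.56 to 0.40, SHM1 from −0.36 to 0.034, SHM2 from −0.34 to 0.49, GCV2 from −0.19 to 0.75, GCV3 from −0.52 to 0.10 and MTD1 from −0.10 to 0.64. The cause was not tested. The labels do not say whether replicate numbers pair the libraries. In no comparison did every same-numbered pair deviate together. For replicates 1, 2 and 3, r was −0.85, −0.78 and −0.60 between sam1Δ/sam1Δ and wildtype. It was −0.66, 0.14 and −0.64 between sam2Δ/sam2Δ and wildtype, and 0.69, −0.19 and 0.65 between the mutants. Each r was taken around strain means of 3 libraries, so these values are tied to each other and cannot show how libraries were handled. With the replicate block 0 of the 10 genes were counted in sam1Δ/sam1Δ, where GCV1 had an unadjusted P of 0.0705 in limma, 389 genes over all in sam2Δ/sam2Δ, and SER33 was still counted in the direct comparison. A count test with edgeR was planned on recovered reads and was not run, because whole reads could not be recovered for genes that share a locus. The lowest of the 10 genes held at least 113 reads in each library, and the precision of each comparison rests on 3 libraries per strain.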
